A study of Mus musculus with 12 samples.

Results

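The genes described here are 40 genes of glucose uptake, glycolysis and the response to low oxygen, followed through cultured mouse TH2 and TH1 cells with and without Itgav, which encodes the αv chain of integrins. They were taken by name from a list: transporters, enzymes of the pathway and its side branches, the HIF transcription factor subunits and their prolyl hydroxylases, and other genes known as HIF targets. The list was chosen with earlier results of these data known. All 40 had a row among the 26202 gene symbols measured (Ero1l stands there as Ero1a, its newer name), and 38 of them were high enough to be tested. RNA-seq was made from 12 libraries, 3 in each of 4 groups: TH2 Itgav KO, TH2 control, TH1 Itgav KO and TH1 control. Naïve CD4+ cells of the spleen came from Cd4-CreERT2 Itgav fl/fl mice for the KO groups and from Cd4-CreERT2 mice for the control groups, on a C57BL/6 background, so that both genotypes carry the drug-inducible Cre and only the KO cells carry the allele it removes. The cells were stimulated through CD3 and CD28 with IL-2, in IL-4 and anti-IFNγ for TH2 or IL-12 and anti-IL-4 for TH1 conditions, and live CD4+ cells were sorted on day 5. Whether either genotype of the sequenced cultures received 4-hydroxytamoxifen, the drug that switches the Cre on, and how old the mice were is not stated, and no sort on αv is named, so a KO culture can hold cells that kept it. The libraries are numbered, but no mouse or culture is named for them, and the spread that p-values rest on may thus be technical.

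Glycolysis splits glucose into pyruvate in the cytosol. The pyruvate is either reduced to lactate and exported or carried into mitochondria, and Pdk1, a kinase that switches off pyruvate dehydrogenase, favours the first course. HIF, a pair of an α subunit (Hif1a or Epas1, which encodes HIF-2α) with Arnt, raises most of these genes when oxygen is low, and the prolyl hydroxylases Egln1 and Egln3 mark the α subunits for destruction when oxygen is present. Activated T cells use glycolysis heavily even in air, and mTOR signalling is known to raise HIF-1α and glycolytic genes. The study reported reduced mTOR signalling, by a protein readout, and lower RNA of some mTOR-regulated genes in αv-deficient TH2 cells. The part of mTOR in the levels given here was not tested.

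Levels are given in CPM, which scales each count to the library's reads in genes. Differences are on the log2(CPM + 1) scale with their standard error, where low genes show less than their full change. A gene was called when its adjusted p fell below 0.05 in limma, fitted to the 9121 genes that reached 10 CPM in 3 or more libraries. The libraries held 6344185 to 13312235 reads in genes, so that 3 reads, the limit for a gene at 0 by counting error alone, were worth 0.225 to 0.473 CPM. Itgav was at 43.5 to 60.5 CPM in TH2 Itgav KO cells, against 195 to 313 CPM in TH2 control cells (log2 −2.22 ± 0.25, adjusted p = 2.85e-05), and at 21.3 to 42.8 CPM in TH1 Itgav KO cells, against 154 to 228 CPM in TH1 control cells (−2.72 ± 0.25, adjusted p = 4.33e-06). TH2 control 1 stands apart by its ribosomal Rn45s, at 58367 CPM against 7510 to 23034 CPM in the other 11 libraries, which lowers every other value of that library a little. The summed T cell markers Cd3e, Cd3g, Cd4 and Thy1 were at 4611 to 5399 CPM in all libraries, with Gata3 at 660.3 to 831 CPM in TH2 and 9.32 to 28.5 CPM in TH1 libraries. In TH2 Itgav KO cells the B cell list summed to 210.1 to 264 CPM, against 81.8 to 108 CPM in TH2 control cells. Its tested genes Cd74 and H2-Ab1, which are not specific to B cells, were called higher. Of the genes that define B cells, Cd79a and Ms4a1 were under 1 CPM in every library, while Cd79b, too low to test, was at 8.499, 11.5 and 11.7 CPM in TH2 Itgav KO libraries, against 6.47, 3.63 and 5.80 CPM in TH2 control libraries, without overlap, and at most 0.451 CPM in TH1 libraries.

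The stretches before 4 of the genes that rose in TH2 Itgav KO cells are shown because HIF is known to bind the letters ACGTG or GCGTG. Each is 250 bases long, ends just before the most upstream RefSeq start of its gene (build GRCm38.p6), and is written 5′ to 3′ on the strand of the gene, with every match of either motif, on either strand, in capitals. The Egln1 stretch is chr8:124949255-124949504 (minus strand), the Pdk1 stretch chr2:71872974-71873223 (plus), the Pgm1 stretch chr4:99929201-99929450 (plus) and the Gpi1 stretch chr7:34230337-34230586 (minus).
Egln1: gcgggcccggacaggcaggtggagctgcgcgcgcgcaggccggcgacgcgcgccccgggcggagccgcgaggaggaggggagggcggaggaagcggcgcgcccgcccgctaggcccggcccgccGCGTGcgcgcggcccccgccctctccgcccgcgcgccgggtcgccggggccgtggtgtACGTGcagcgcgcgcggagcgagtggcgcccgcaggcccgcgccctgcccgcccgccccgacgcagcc
Pdk1: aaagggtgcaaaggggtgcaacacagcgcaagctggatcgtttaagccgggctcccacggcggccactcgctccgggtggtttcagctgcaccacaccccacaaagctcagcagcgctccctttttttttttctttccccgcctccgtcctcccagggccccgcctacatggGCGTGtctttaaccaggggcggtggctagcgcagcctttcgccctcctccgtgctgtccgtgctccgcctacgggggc
Pgm1: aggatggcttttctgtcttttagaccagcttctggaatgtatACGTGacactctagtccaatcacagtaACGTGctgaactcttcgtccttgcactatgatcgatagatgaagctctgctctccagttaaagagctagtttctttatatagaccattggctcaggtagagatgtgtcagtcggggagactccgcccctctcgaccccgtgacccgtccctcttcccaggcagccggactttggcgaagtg
Gpi1: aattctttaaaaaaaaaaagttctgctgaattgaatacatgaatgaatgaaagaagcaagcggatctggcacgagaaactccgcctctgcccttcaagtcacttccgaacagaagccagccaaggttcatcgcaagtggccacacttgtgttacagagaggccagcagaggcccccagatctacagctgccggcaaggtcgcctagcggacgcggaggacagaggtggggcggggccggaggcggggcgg
Egln1 has GCGTG 126 bases and ACGTG 68 bases before its start, Pdk1 has GCGTG 78 bases before it, Pgm1 has ACGTG 208 and 181 bases before it, and Gpi1 has neither. Such a stretch was at hand for 36 of the 40 genes, and Slc2a3, Epas1, Bnip3l and Ndrg1 were not matched in the set of stretches used. ACGTG, which also lies inside the E-box CACGTG, was found in 19 of the 36 (52.8%), against 22.9% of the 7423 tested genes with a stretch and 16.5% of all 27025. GCGTG was found in 18 (50.0%), against 47.8% and 28.3%, and the E-box in 5 (13.9%), against 8.9% and 6.0%. Of the 8 matched genes called higher in TH2 Itgav KO cells, 4 held either motif (50.0%), and of the other 28, 24 did (85.7%). The share was 59.3% over tested genes with a stretch and 38.6% over all genes with one. A match is a description of the letters only.

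In TH2 cells, 10 of the 38 tested genes were higher without Itgav (26.3%), against 1.92% of all genes tested, and 0 were lower, against 1.67% of all genes tested. At an unadjusted p under 0.05, 19 of the 38 were higher (50.0%) and 0 lower in the same limma fit, against 10.6% and 8.5% of all genes tested. The 10 were Slc2a3, Gpi1, Pfkm, Aldoa, Tpi1, Pdk1, Pgm1, Gys1, Egln1 and Bnip3l, and they come from every role, from glucose entry to the HIF targets. The difference was positive for 33 genes and negative for 5, with a median of 0.44, against 0.04 over all genes tested. Every KO library lay above every control library for 16 of the 38 (42.1%), against 9.97% of all genes tested, and below for 0, against 8.76%. Since the list was chosen with earlier results of these data known, these shares describe it and are not an independent test. The count of 10 rests on few libraries: it was 2 without TH2 control 2, 4 without TH2 Itgav KO 2, 5 without TH1 control 2, which enters only through the shared spread, and 6 without TH2 Itgav KO 1, but no gene was lower in any of these fits. With TMM scaling, a correction for composition, it was 6, and with Rn45s taken out of the totals, a setting chosen after seeing the data, 7. With only the groups compared, where TH1 libraries did not enter the spread, it was 5. In the main fit 175 of the 9121 genes tested were called higher and 152 lower. Calls over all genes were 158 of 9051 tested without TH2 control 2 and 208 of 9053 without TH2 Itgav KO 2. They were 238 of 9073 without TH1 control 2 and 229 of 9045 without TH2 Itgav KO 1. With TMM scaling they were 329 of 9130, and with Rn45s taken out 324 of 9159. With only the groups compared they were 125 of 8456. In bulk RNA, fewer cells of a type and less RNA per cell cannot be told apart.

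**Figure D1:**
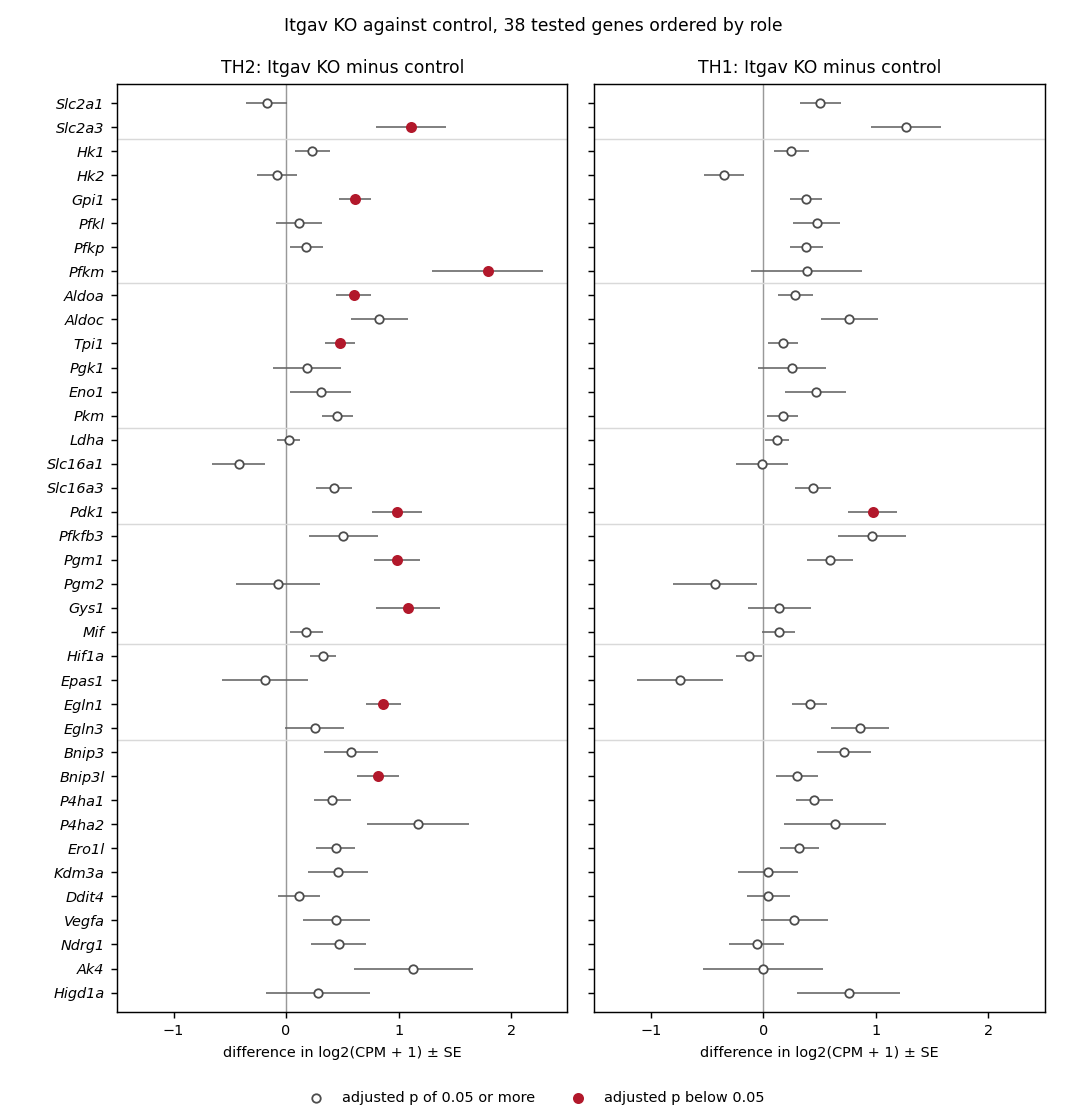
Difference in log2(CPM + 1) between Itgav KO and control cells, with its standard error, for the 38 tested genes in TH2 cells (left) and TH1 cells (right). Genes run by role from glucose entry at the top to other HIF targets at the bottom, grey lines part the roles, and filled points have an adjusted p below 0.05 (10 genes in TH2, 1 in TH1). Most points lie right of 0 in both panels (33 and 31 of 38).

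Of the glucose transporters, Slc2a3 (GLUT3, the high-affinity transporter) rose and Slc2a1 (GLUT1, the main transporter of activated T cells) did not. Slc2a3 had 482, 477 and 283 CPM in TH2 Itgav KO libraries, against 193, 131 and 254 CPM in TH2 control libraries. The groups did not overlap, but TH2 Itgav KO 3 lay close to TH2 control 3, and the call was at the edge (log2 1.11 ± 0.31, adjusted p = 0.0499). It was lost without any of 7 libraries, up to adjusted p = 0.181 without TH2 control 2. In TH1 cells Slc2a3 had 89.5, 150.1 and 177 CPM in Itgav KO libraries, against 79.9, 65.6 and 31.5 CPM in control libraries, again with no overlap and a difference as large that was not called (1.27 ± 0.31, adjusted p = 0.0567). Slc2a1 had 411, 335 and 205 CPM in TH2 Itgav KO libraries, against 345, 338 and 347 CPM in TH2 control libraries, so that the KO libraries lay on both sides of the tight controls (−0.17 ± 0.18, adjusted p = 0.659). TH1 levels were 394, 529 and 441 CPM in Itgav KO libraries, against 324, 307 and 321 CPM in control libraries, without overlap (0.51 ± 0.18, adjusted p = 0.259). The KO effect on Slc2a1 in TH2 cells minus that in TH1 cells was −0.68 ± 0.26, which was not called (adjusted p = 0.313).

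Among the 6 genes of the upper part of glycolysis, Gpi1 and Pfkm were called in TH2 cells. Gpi1, which turns glucose 6-phosphate into fructose 6-phosphate, had 908, 1279 and 934 CPM in TH2 Itgav KO libraries, against 725, 661 and 636 CPM in TH2 control libraries. The KO libraries were all higher, TH2 Itgav KO 2 the most (0.61 ± 0.14, adjusted p = 0.0198). The call was lost without TH2 Itgav KO 2 (adjusted p = 0.1002), TH2 control 2 (adjusted p = 0.0616) or TH2 control 3 (adjusted p = 0.0534). In TH1 cells Gpi1 had 566, 632 and 717 CPM in Itgav KO libraries, against 568, 449 and 459 CPM in control libraries, overlapping only through TH1 control 1 (0.38 ± 0.14, adjusted p = 0.292). Pfkm, the muscle form of phosphofructokinase, is a minor gene here: it had 21.1, 23.2 and 36.0 CPM in TH2 Itgav KO libraries, against 12.4, 2.38 and 9.42 CPM in TH2 control libraries. The gap was wide and TH2 control 2 was far below the rest (1.79 ± 0.49, adjusted p = 0.0479). The call was lost without any of 10 libraries, up to adjusted p = 0.172 without TH2 control 2. Among the 10 are TH1 libraries, which enter only through the shared spread and leave the difference as it was. The gene stood in TH1 cells at 10.6, 19.6 and 9.30 CPM in Itgav KO libraries, against 7.27, 11.8 and 9.43 CPM in control libraries, with overlap (0.39 ± 0.49, adjusted p = 0.884). Hk2, the inducible hexokinase that traps glucose in the cell, had 323, 264 and 199 CPM in TH2 Itgav KO libraries, against 202, 344 and 289.9 CPM in TH2 control libraries (−0.08 ± 0.18, adjusted p = 0.851). The groups overlapped throughout. In TH1 cells it had 615, 531 and 552 CPM in Itgav KO libraries, against 696, 809 and 664 CPM in control libraries, the only gene of the 38 with every KO library below every control library there (−0.35 ± 0.18, adjusted p = 0.536). Pfkp, the platelet form of phosphofructokinase, averaged 507 ± 70.0 CPM in TH2 Itgav KO cells and 446 ± 36.6 CPM in TH2 control cells (SD, n = 3 each). Hk1 (197 to 308 CPM over the 12 libraries) and Pfkl (84.1 to 149 CPM) were not called in any comparison.

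The lower part of glycolysis holds Aldoa, the most abundant transcript of the list. Per kilobase of exon, Aldoa led all 40 in every group, with 2189.9 CPM per kb in TH2 Itgav KO and 1425 CPM per kb in TH2 control cells, ahead of Ldha at 826 and 810. Aldoa (aldolase A) had 5460.4, 8343 and 5321 CPM in TH2 Itgav KO libraries, against 4955, 3515 and 3974 CPM in TH2 control libraries. TH2 Itgav KO 2 stood high and the other KO libraries lay just above TH2 control 1 (0.60 ± 0.15, adjusted p = 0.0344). The call was lost without any of 5 libraries, up to adjusted p = 0.144 without TH2 Itgav KO 2. In TH1 cells Aldoa had 4216, 5613 and 5442 CPM in Itgav KO libraries, against 4318, 3963 and 4175 CPM in control libraries, with TH1 Itgav KO 1 among the controls (0.28 ± 0.15, adjusted p = 0.575). Tpi1, triosephosphate isomerase, had 1224, 1576 and 1029 CPM in TH2 Itgav KO libraries, against 939.5, 839 and 923 CPM in TH2 control libraries. All KO libraries were higher, again with TH2 Itgav KO 2 at the top (0.48 ± 0.13, adjusted p = 0.0483). The call was lost without any of 10 libraries, up to adjusted p = 0.192 without TH2 Itgav KO 2. Among the 10 are TH1 libraries, which enter only through the shared spread and leave the difference as it was. TH1 levels were 1078, 1298 and 1224 CPM in Itgav KO libraries, against 1115, 997 and 1074 CPM in control libraries (0.17 ± 0.13, adjusted p = 0.757). Pkm, pyruvate kinase, had 2482, 3047 and 2057 CPM in TH2 Itgav KO libraries, against 2204, 1539.8 and 1772 CPM in TH2 control libraries, overlapping through TH2 Itgav KO 3 and TH2 control 1 (0.46 ± 0.14, adjusted p = 0.0681). The gene stood in TH1 cells at 2598, 2845 and 3084 CPM in Itgav KO libraries, against 2542, 2449.6 and 2549 CPM in control libraries, with no overlap and a small difference (0.17 ± 0.14, adjusted p = 0.761). Aldoc, aldolase C, averaged 189 ± 33.7 CPM in TH2 Itgav KO cells and 105 ± 12.7 CPM in TH2 control cells (0.83 ± 0.25, adjusted p = 0.0721). Eno1 ranged over 100.1 to 311 CPM and was called nowhere. Pgk1 (20.4 to 48.6 CPM) and Pgam1 (3.08 to 5.36 CPM, not tested) were the lowest of these enzymes, and both have near-identical copies in the genome whose reads the counting could have shared or dropped, so their levels are uncertain, as may be those of Aldoa, Tpi1, Eno1, Ldha and Mif.

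Summed over these 13 genes of upper and lower glycolysis, the libraries held 11907, 16037 and 10630 CPM in TH2 Itgav KO cells, against 10114, 8062 and 8643 CPM in TH2 control cells. In TH1 cells the sum was 10206, 12149 and 12230 CPM in Itgav KO cells, against 10222, 9573 and 9762 CPM in control cells. TH2 Itgav KO 2 was the highest of the 12 libraries and TH2 control 2 the lowest, which are also libraries whose removal most lowered the count of calls.

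At the fate of pyruvate, Pdk1 rose in both subsets, while Ldha, which makes lactate, did not detectably change. Pdk1 had 136, 100.6 and 129 CPM in TH2 Itgav KO libraries, against 45.6, 63.8 and 76.1 CPM in TH2 control libraries. The difference was about as large as the control level (0.98 ± 0.22, adjusted p = 0.0160, a fold of 1.97 of the means). In TH1 cells it had 103, 120.1 and 132 CPM in Itgav KO libraries, against 61.3, 71.7 and 48.2 CPM in control libraries, with no overlap and nearly the same difference (0.97 ± 0.22, adjusted p = 0.0358, a fold of 1.96). The effects in the subsets differed by 0.01 (95% interval −0.64 to 0.67). The TH2 call was lost without TH2 Itgav KO 1 (adjusted p = 0.0641) or TH2 Itgav KO 3 (adjusted p = 0.0514), and the TH1 call without any of 7 libraries, up to adjusted p = 0.194 without TH1 Itgav KO 3. Pdk1 lies 11.82 Mb from Itgav on chromosome 2, and in this design an effect of the chromosome stretch around the modified allele cannot be told apart from the loss of Itgav. Pfkfb3 is the only other gene of the 40 on that chromosome, 72.17 Mb away. Ldha had 2958, 2863 and 2385 CPM in TH2 Itgav KO libraries, against 2612, 2745 and 2691 CPM in TH2 control libraries (0.02 ± 0.10, adjusted p = 0.937, 95% interval −0.20 to 0.24). TH1 levels were 2996, 3312 and 3375 CPM in Itgav KO libraries, against 2741, 3074 and 3077 CPM in control libraries (0.12 ± 0.10, adjusted p = 0.785). Ldha groups overlapped in both subsets and the values were among the most even of the list. Of the lactate exporters, Slc16a3 (MCT4) ranged over 322 to 597 CPM and was called nowhere, and Slc16a1 (MCT1) averaged 74.1 ± 22.1 CPM in TH2 Itgav KO and 98.5 ± 23.6 CPM in TH2 control cells, the most negative difference of the list in TH2 (−0.42 ± 0.23, adjusted p = 0.338).

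Of the side branches, the glycogen genes Pgm1 and Gys1 rose in TH2 cells. Pgm1, phosphoglucomutase, moves glucose between glycolysis and glycogen. It had 280.5, 289 and 189 CPM in TH2 Itgav KO libraries, against 142, 89.1 and 153 CPM in TH2 control libraries, with every KO library above (0.99 ± 0.20, adjusted p = 0.00953, lost without TH2 control 2 at adjusted p = 0.0519). The gene stood in TH1 cells at 140.2, 154 and 172 CPM in Itgav KO libraries, against 112, 93.2 and 104 CPM in control libraries, also without overlap (0.59 ± 0.20, adjusted p = 0.228). Gys1, the glycogen synthase of most tissues, had 109.9, 184 and 124 CPM in TH2 Itgav KO libraries, against 65.7, 67.7 and 57.8 CPM in TH2 control libraries. The controls were even and all KO libraries were above them (1.09 ± 0.28, adjusted p = 0.0370), but the call was lost without any of 8 libraries, up to adjusted p = 0.152 without TH2 Itgav KO 2. In TH1 cells Gys1 had 31.0, 82.4 and 70.8 CPM in Itgav KO libraries, against 50.2, 53.1 and 50.2 CPM in control libraries, with TH1 Itgav KO 1 below all controls (0.14 ± 0.28, adjusted p = 0.936). Pfkfb3, which makes the activator of phosphofructokinase, had 84.5, 50.0 and 53.7 CPM in TH2 Itgav KO libraries, against 33.4, 56.9 and 40.5 CPM in TH2 control libraries (0.51 ± 0.30, adjusted p = 0.381). In TH1 cells it had 28.5, 45.1 and 38.5 CPM in Itgav KO libraries, against 22.4, 14.1 and 19.3 CPM in control libraries, with no overlap (0.97 ± 0.30, adjusted p = 0.159). Pgm2 averaged 24.3 ± 7.44 CPM in TH2 Itgav KO and 25.2 ± 4.58 CPM in TH2 control cells. Mif (391 to 684 CPM) was called nowhere, and Pfkfb4 (0.273 to 5.37 CPM) was too low to test.

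**Figure D2:**
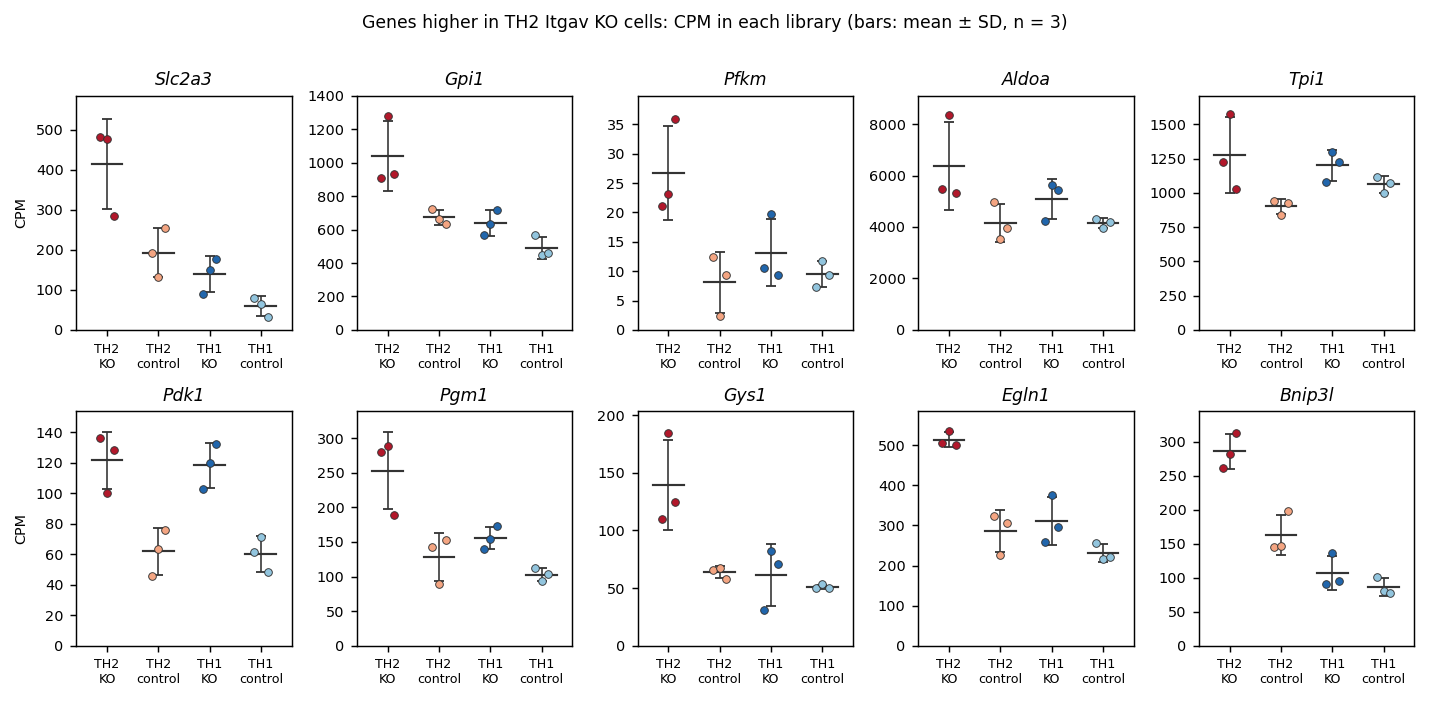
CPM in each library (points), with the group mean and SD over 3 libraries, for the 10 genes called higher in TH2 Itgav KO cells, each panel on its own axis from 0. TH2 Itgav KO libraries lie above all TH2 control libraries in each panel, and for Slc2a3, Pdk1, Pgm1 and Egln1 the TH1 Itgav KO libraries also lie above all TH1 control libraries.

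Among the HIF subunits and hydroxylases, Egln1 was called, and it kept its call under more alternatives than any other of the 10. This prolyl hydroxylase (PHD2), the main oxygen sensor of most cells and itself a HIF target, had 506, 535 and 501 CPM in TH2 Itgav KO libraries, against 323, 225 and 307 CPM in TH2 control libraries. The KO libraries were nearly equal and well above the controls (0.86 ± 0.16, adjusted p = 0.00360, a fold of 1.80). The call held whichever library was left out (adjusted p up to 0.0220) and was lost only without the variance trend (adjusted p = 0.0741) among 23 alternatives. In TH1 cells Egln1 had 258, 376 and 297 CPM in Itgav KO libraries, against 257, 216 and 220.3 CPM in control libraries, where TH1 Itgav KO 1 all but touched TH1 control 1 (0.41 ± 0.16, adjusted p = 0.311). Egln3 (PHD3), the other hydroxylase here, had 517, 523 and 244 CPM in TH2 Itgav KO libraries, against 241, 401 and 403 CPM in TH2 control libraries, with overlap (0.25 ± 0.26, adjusted p = 0.649). TH1 levels were 265, 440.5 and 349.7 CPM in Itgav KO libraries, against 216, 216 and 147 CPM in control libraries, without overlap (0.86 ± 0.26, adjusted p = 0.136). Hif1a had 1753, 1510.0 and 1628 CPM in TH2 Itgav KO libraries, against 1311, 1184 and 1397 CPM in TH2 control libraries. All KO libraries were higher, yet the difference was not called (0.33 ± 0.12, adjusted p = 0.124). In TH1 cells Hif1a had 1259.9, 1079 and 1073 CPM in Itgav KO libraries, against 1314, 1327 and 1086 CPM in control libraries (−0.13 ± 0.12, adjusted p = 0.811). HIF-1α is set largely by protein stability, which RNA does not show. Epas1 had 296, 225 and 254 CPM in TH2 Itgav KO libraries, against 247, 348 and 291 CPM in TH2 control libraries (−0.19 ± 0.38, adjusted p = 0.839). In TH1 cells it was near the floor, with 1.37, 0 and 0.268 CPM in Itgav KO libraries, against 2.93, 0.977 and 0.793 CPM in control libraries.

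**Figure D3:**
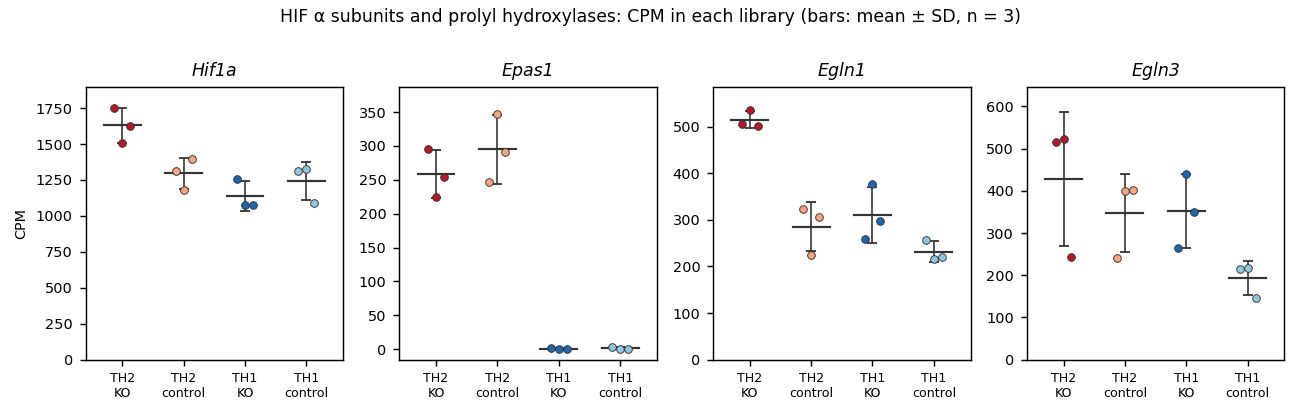
CPM in each library (points), with the group mean and SD over 3 libraries, for the HIF α subunits Hif1a and Epas1 and the prolyl hydroxylases Egln1 and Egln3. Epas1 is at 225 to 348 CPM in TH2 and at or below 2.93 CPM in TH1 libraries, while the others are present in both subsets.

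All 11 other HIF targets had a positive difference in TH2 cells, with a median of 0.46, but only Bnip3l was called. Bnip3l (Nix), a receptor that marks mitochondria for removal, had 262, 282 and 313 CPM in TH2 Itgav KO libraries, against 145, 147 and 197 CPM in TH2 control libraries. The groups were well apart (0.82 ± 0.19, adjusted p = 0.0182), though the call was lost without TH2 Itgav KO 3 (adjusted p = 0.0702) or TH2 control 2 (adjusted p = 0.0672). The gene stood in TH1 cells at 90.5, 136 and 95.8 CPM in Itgav KO libraries, against 100.8, 80.3 and 77.5 CPM in control libraries, with overlap (0.30 ± 0.19, adjusted p = 0.658). Its relative Bnip3 had 109.9, 118 and 85.5 CPM in TH2 Itgav KO libraries, against 58.7, 70.2 and 79.5 CPM in TH2 control libraries, with no overlap (0.58 ± 0.24, adjusted p = 0.189). In TH1 cells Bnip3 had 44.6, 49.8 and 54.7 CPM in Itgav KO libraries, against 40.5, 25.2 and 25.7 CPM in control libraries, again with no overlap (0.72 ± 0.24, adjusted p = 0.204). Ero1l, an oxidase that helps proteins fold in the endoplasmic reticulum, had 1057, 1098 and 1032 CPM in TH2 Itgav KO libraries, against 705, 747 and 905 CPM in TH2 control libraries (0.44 ± 0.17, adjusted p = 0.166). In TH1 cells it had 192, 278 and 252 CPM in Itgav KO libraries, against 256, 184 and 147 CPM in control libraries, with overlap (0.32 ± 0.17, adjusted p = 0.571). The collagen prolyl hydroxylase gene P4ha2 averaged 66.2 ± 32.2 CPM in TH2 Itgav KO and 29.7 ± 16.0 CPM in TH2 control cells (1.17 ± 0.45, adjusted p = 0.158), and Ndrg1 averaged 249.8 ± 21.9 and 188 ± 67.7 CPM in the same groups (0.47 ± 0.25, adjusted p = 0.308). P4ha1, Kdm3a, Ddit4, Vegfa, Ak4 and Higd1a were called in no comparison, and the lowest and highest of their values were 4.88 CPM (Ak4) and 670.3 CPM (Ddit4).

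In TH1 cells only Pdk1 was called among the 38 (2.63%), against 0.329% of all genes tested called higher, and 0 genes were lower, against 0.515% of all genes tested. At an unadjusted p under 0.05, 14 were higher (36.8%) and 0 lower, against 4.41% and 5.68% of all genes tested. The count was 0 without TH1 Itgav KO 2 or 3, TH1 control 2 or 3 or TH2 Itgav KO 1, 2 without TH2 control 1 or 2, and 3 without TH2 Itgav KO 3. With only the groups compared it was 6, with Slc2a1, Slc2a3, Slc16a3, Pgm1 and Egln3 called beside Pdk1. Over all 9121 genes, 30 were called higher and 47 lower in the main fit. Calls over all genes were 34 and 26 without TH1 Itgav KO 2 and 3, and 30 and 54 without TH1 control 2 and 3. They were 72 without TH2 Itgav KO 1, 105 and 124 without TH2 control 1 and 2, and 95 without TH2 Itgav KO 3. With only the groups compared they were 367 of 8366. Of the 38 genes, the difference was positive for 31 and negative for 7, with a median of 0.31, against 0.00 over all genes tested. Every KO library lay above every control library for 17 of the 38 (44.7%), against 10.2% of all genes tested, and below for 1 (2.63%), against 10.6%. Slc2a3, Pdk1, Pgm1, Egln1, Bnip3 and P4ha1 had all KO libraries above all control libraries in both subsets, 6 of 38 (15.8%), against 1.79% of all genes tested. No gene of the list had a KO effect that was called different between TH2 and TH1 cells, against 0.406% of all genes tested, and at an unadjusted p under 0.05 there were 3 (7.89%; 2 larger in TH2, 1 larger in TH1), against 11% of all genes tested. The lowest adjusted p of that test was 0.28, for Hif1a (0.46 ± 0.16). So 10 calls in TH2 and 1 in TH1 cells do not show a difference between the subsets. With only the groups compared, more genes of the list were called in TH1 than in TH2 cells.

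Between the subsets themselves, the same libraries were compared the other way, to ask which of these genes mark TH2 cells. Among Itgav KO cells 14 genes were higher in TH2, against 12.2% of all genes tested, and 2 lower, against 11.6%. Among control cells 12 were higher in TH2, against 8.58% of all genes tested, and 2 lower, against 9.75%. Without TH1 control 3 there were 9 calls in all, with 1144 called of all 9070 genes tested. Slc2a3, Gpi1, Aldoc, Epas1, Bnip3, Bnip3l, Ero1l and Ndrg1 were higher and Hk2 lower in both genotypes. The Gpi1 call among control cells (0.46 ± 0.14, adjusted p = 0.0273) was lost under 5 of the 23 alternatives. These were 3 single libraries left out, no filter, and no variance trend (up to adjusted p = 0.142). Among KO cells the Gpi1 call (0.69 ± 0.14) held under all 23. Epas1 stood out, at 225 to 296 CPM in TH2 Itgav KO libraries, against 0 to 1.37 CPM in TH1 Itgav KO libraries, and at 247 to 348 CPM in TH2 control libraries, against 0.793 to 2.93 CPM in TH1 control libraries. The log2 difference was 7.48 ± 0.38 among KO cells (adjusted p = 7.37e-12) and 6.93 ± 0.38 among control cells (adjusted p = 1.86e-11), and since TH1 values are so low, it moved over 5.75 to 7.52 in the control comparison with the setting, mostly the pseudocount. The ratio of the control means was 188.

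**Figure D4:**
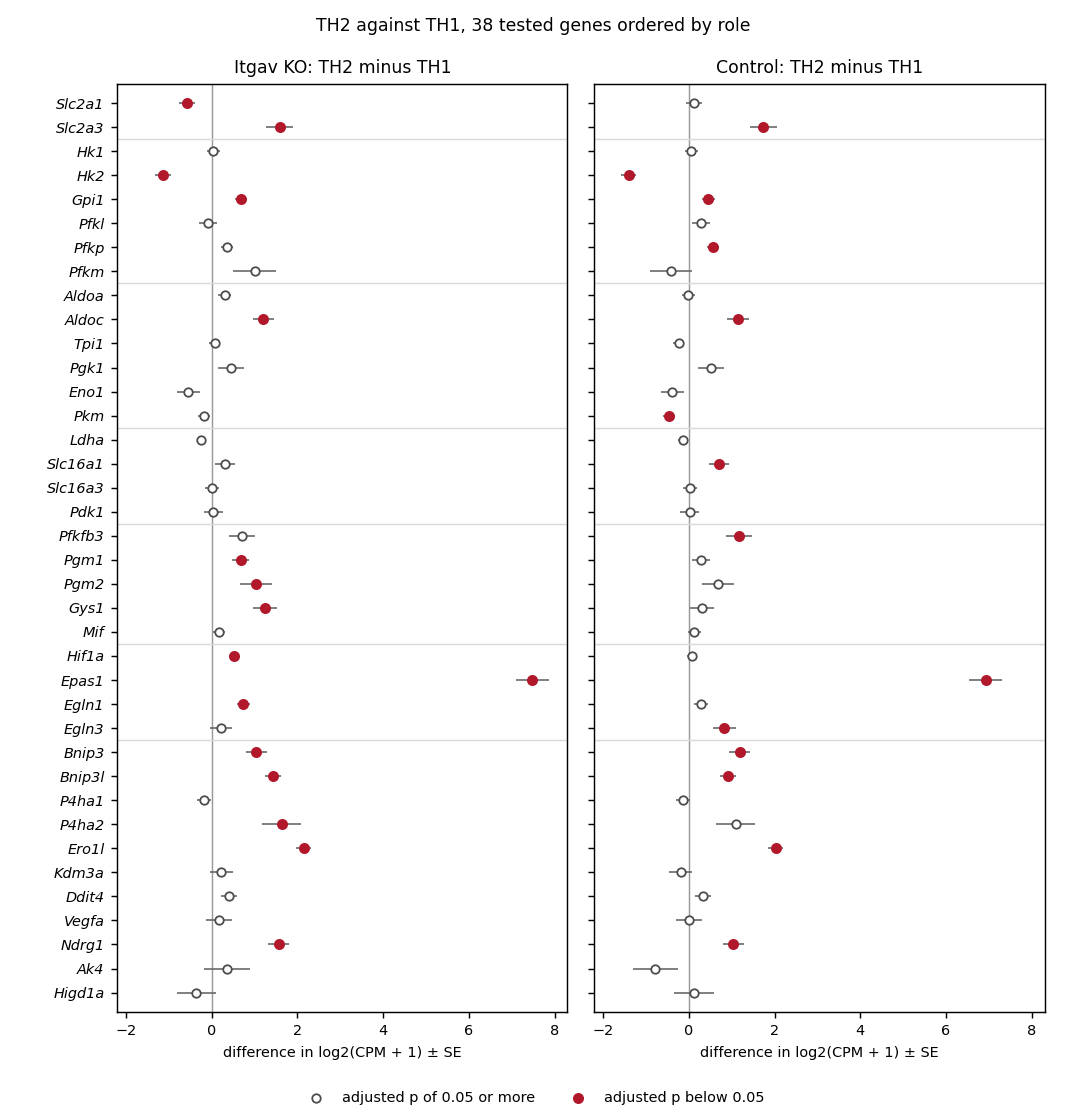
Difference in log2(CPM + 1) between TH2 and TH1 cells, with its standard error, for the 38 tested genes among Itgav KO cells (left) and control cells (right). Order, lines and filled points are as for the KO effects. Epas1 lies far right in both panels at 7.48 and 6.93, and Hk2 is the lowest at −1.13 and −1.40.

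Ero1l was the next largest, with all TH2 libraries (705 to 1098 CPM) above all TH1 libraries (147 to 278 CPM), and log2 2.15 ± 0.17 among KO cells and 2.03 ± 0.17 among control cells (adjusted p = 7.54e-09 and 1.84e-08). Slc2a3 was at 1.58 ± 0.31 among KO cells and at 1.74 ± 0.31 among control cells, where it came next (adjusted p = 0.000657 and 0.000303). Bnip3 differed by 1.05 ± 0.24 and 1.18 ± 0.24, and Bnip3l by 1.42 ± 0.19 and 0.91 ± 0.19, among KO and control cells. These genes kept their call among control cells under all 23 alternatives. Hk2 went the other way, at 199 to 323 CPM in TH2 Itgav KO libraries, against 531 to 615 CPM in TH1 Itgav KO libraries, and at 202 to 344 CPM in TH2 control libraries, against 664 to 809 CPM in TH1 control libraries (−1.13 ± 0.18 and −1.40 ± 0.18, adjusted p = 7.74e-05 and 5.86e-06).

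Aldoc and Ndrg1 were also called in both genotypes, under all 23 alternatives. Aldoc averaged 189 ± 33.7 CPM in TH2 Itgav KO cells and 81.6 ± 17.0 CPM in TH1 Itgav KO cells, and 105 ± 12.7 CPM in TH2 control cells and 49.8 ± 21.1 CPM in TH1 control cells (1.21 and 1.14). Ndrg1 averaged 249.8 ± 21.9 CPM in TH2 Itgav KO cells and 84.6 ± 15.5 CPM in TH1 Itgav KO cells, and 188 ± 67.7 CPM in TH2 control cells and 90.6 ± 31.4 CPM in TH1 control cells (1.56 and 1.04). Other genes were called in 1 genotype alone. Among control cells, Pfkp (446 ± 36.6 CPM in TH2 and 304 ± 61.6 CPM in TH1, 0.56 ± 0.15), Slc16a1 (98.5 ± 23.6 and 58.7 ± 4.40 CPM, 0.72 ± 0.23), Pfkfb3 (1.17 ± 0.30) and Egln3 (0.83 ± 0.26) were called higher in TH2, and Pkm lower (−0.47 ± 0.14, adjusted p = 0.0202). The calls of Pfkp and Pfkfb3 were each lost without 1 library (TH1 control 3, adjusted p = 0.0691, and TH1 control 2, adjusted p = 0.0529), that of Egln3 without any of 3 (up to adjusted p = 0.155 without TH1 control 3), that of Slc16a1 without any of 4 (up to adjusted p = 0.155 without TH2 control 2) and that of Pkm without any of 5 (up to adjusted p = 0.113 without TH2 control 2). Among KO cells, Pgm1 (0.68 ± 0.20), Pgm2 (24.3 ± 7.44 CPM in TH2 and 11.1 ± 2.07 CPM in TH1, 1.04 ± 0.38), Gys1 (1.25 ± 0.28), Hif1a (0.52 ± 0.12), Egln1 (0.74 ± 0.16) and P4ha2 (66.2 ± 32.2 and 20.6 ± 8.58 CPM, 1.63 ± 0.45) were called higher in TH2, and Slc2a1 lower (−0.57 ± 0.18, adjusted p = 0.0291). The Slc2a1 difference was −0.28 without TH2 Itgav KO 3 (adjusted p = 0.189), and its call was lost under 7 of the 23 alternatives. Pgm2 was at the edge (adjusted p = 0.0497) and lost under 17 of the 23, with up to adjusted p = 0.199 without TH2 Itgav KO 2. Pgm1 was lost without any of 4 libraries (up to adjusted p = 0.0923 without TH2 Itgav KO 2) and P4ha2 without TH2 Itgav KO 2 (adjusted p = 0.0828) or TH1 Itgav KO 1 (adjusted p = 0.0770), while Gys1, Hif1a and Egln1 kept their call under all 23. Whether these differ between genotypes is the same interaction as above, in which no gene of the list was called.

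Other genes of the pathway were counted in lists of 5 to 23 tested genes that are not part of the 40. Of 17 further glycolysis genes listed, 9 were tested, and Gapdh was not among them. The lists overlap: Gbe1 stands under both glycogen and further HIF targets, and Pfkfb2 under both further glycolysis and further HIF targets. In TH2 Itgav KO against TH2 control cells, limma called 0 of 9 tested further glycolysis genes (1 at an unadjusted p under 0.05), 0 of 8 of pyruvate oxidation (1), 0 of 7 of the pentose phosphate pathway (0), 0 of 5 of glycogen handling (3) and 0 of 7 further parts of the HIF pathway (3). Over all genes tested 1.92% were called higher, 1.67% lower and 19.1% were at an unadjusted p under 0.05. The medians of the lists were −0.18, −0.32, −0.09, 0.56 and 0.09. Of 23 tested further HIF targets, 2 rose, Mt1 (a metal-binding metallothionein, 1.12 ± 0.16, adjusted p = 0.000228) and Selenbp1 (2.12 ± 0.59, adjusted p = 0.0499), and 1 fell, Tfrc, the transferrin receptor that brings in iron (−1.18 ± 0.15, adjusted p = 0.000133), with a median of 0.21. Of these 23, 9 were at an unadjusted p under 0.05 in either direction, and the difference was positive for 15 and negative for 8. In TH1 cells limma called 0 genes of these lists, with 0, 1, 0, 1 and 0 at an unadjusted p under 0.05 in the order above and 3 among the further HIF targets, against 10.1% of all genes tested.

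Values that moved with the TH2 comparison are given here without a test of their part in it. Of 5 TH2 markers, the cytokines Il5 and Il13 were lower in TH2 Itgav KO cells (−2.37 ± 0.41 and −2.09 ± 0.43, adjusted p = 0.00210 and 0.00953), the IL-4 receptor chain Il4ra was higher (0.54 ± 0.12, adjusted p = 0.0122), and Il4 (0.24 ± 0.40) and Gata3 (−0.15 ± 0.21) were not called. Of 4 TH1 markers, the IL-12 receptor chain Il12rb2 was higher in TH2 Itgav KO cells (0.73 ± 0.14, adjusted p = 0.00474), with a KO effect called larger than that in TH1 cells (1.13 ± 0.20, adjusted p = 0.0214), and Ifng, Tbx21 and Cxcr3 were not called. The 6 proliferation markers Mki67, Top2a, Ccnb1, Cdk1, Mcm5 and Pcna summed to 2798 to 3581 CPM in TH2 Itgav KO cells, against 3345 to 4077 CPM in TH2 control cells, and to 2997 to 4107 CPM in TH1 Itgav KO cells, against 2659 to 2942 CPM in TH1 control cells. None of the 6 was called in either subset, and their median difference was −0.43 in TH2 and 0.45 in TH1, where that of the glycolysis and hypoxia list was 0.44 and 0.31. All 6 were negative in TH2, 4 at an unadjusted p under 0.05 in limma, against 19.1% of all genes tested. In TH1 5 were positive and 1 negative, with 3 at such a p, against 10.1%. For the difference of KO effects all 6 were negative, 4 at such a p, against 11%. Markers of NK and CD8 T cells summed to 38.3 to 56.8 CPM in TH2 Itgav KO cells, against 26.5 to 51.1 CPM in TH2 control cells, and to 73.4 to 101.2 CPM in TH1 Itgav KO cells, against 59.5 to 98.9 CPM in TH1 control cells. Myeloid markers summed to at most 32.9 CPM, erythroid markers to at most 3.31 CPM and mast cell and basophil markers to at most 1.85 CPM in any library. The part of these cell types and of proliferation in the results was not tested.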

How the data were processed

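RNA of sorted CD4+ T cells was extracted with the RNeasy Plus Micro kit, amplified with the NuGEN Ovation V2 system and sequenced as single reads, per the study's methods. The authors trimmed the reads with Trim Galore 0.50, aligned them to GRCm38 with STAR 2.6.0a and tested genes with DESeq2 1.18.1, per the submitters' notes on processing. Which program counted reads in genes, and with which annotation, is not given in the sources used here. Values deposited by the authors are CPM, with 0.0001 added to every value, which was taken off. A second sheet, whose 12 per-sample columns are named otherwise than the labels, was not used. Because CPM adds to a fixed total, an abundant gene lowers the rest of its library, and reads fitting more than 1 gene may have been divided or left out. Low values were whole multiples of 1 step (100% of values up to 1000 reads, within 0.1 reads), which gave the depth.

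The test was limma 3.58.1 (R 4.3.3) with a variance trend on log2(CPM + 1), for genes that reached 10 CPM in 3 or more libraries, with a mean for each of the 4 groups over all 12 libraries (8 residual and 12.5 prior degrees of freedom), two-sided, with Benjamini-Hochberg adjustment over 9121 genes. KO and control cells were compared in each subset, the KO effects with each other, and TH2 with TH1 cells in each genotype. These comparisons share libraries. The script was tested on simulated data. Members and lists were chosen with earlier results of these data known. Every member called in a KO comparison got its value in each library, as did Hif1a, Epas1, Egln1, Egln3, Slc2a1, Slc2a3, Hk2, Pdk1 and Ldha, and of members called between subsets alone the 4 largest differences in either direction in control cells; other called members got means, and the rest ranges. Other pathway genes were counted by list, and 1 marker gene is not reported here. Coordinates are from GENCODE vM21 and RefSeq (GRCm38), and levels per kilobase use the union of exons. Counts of replicate pairs gave a chi-square of 18.5 to 76.3 per degree of freedom, above sampling noise, so none was taken as a repeat deposit. Alternatives were other pseudocounts (0.25, 4), filters (1 CPM, none) and scalings (TMM with trims of 0.3 and 0.05, quantile), only the groups compared, no trend, the replicate number as a block and leaving out libraries; taking out Rn45s was added after seeing the data.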

Additional observations from a re-analysis of the deposited data

How the results depend on the processing

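Among the 40 genes, no called difference changed direction under any of the 23 alternatives, but the counts of calls moved. The 10 calls in TH2 Itgav KO against TH2 control cells became 1 with no filter on low values, 6 with TMM scaling, 5 with only the groups compared, 0 with no variance trend, 4 without TH2 control 2 and TH2 Itgav KO 3 together, and 2 to 9 with each library left out. Over all genes, 175 of 9121 were called higher and 152 lower in the main fit. In the same order as above, calls over all genes were 141 of 16414, 329 of 9130, 125 of 8456, 76 of 9121, 153 of 8957, and 158 to 383. The 1 call in TH1 Itgav KO against TH1 control cells became 2 with a pseudocount of 4, 0 with no filter, 6 with only the groups compared, 0 with no variance trend, 5 without TH2 control 2 and TH2 Itgav KO 3 together, and 0 to 3 with each library left out. Over all genes, 30 of 9121 were called higher and 47 lower in the main fit. In the same order, calls over all genes were 95 of 9121, 56 of 16414, 367 of 8366, 29 of 9121, 198 of 8957, and 26 to 124. The 14 calls in TH2 against TH1 control cells became 9 with no variance trend and 9 to 14 with each library left out. Over all genes, 783 of 9121 were called higher and 889 lower in the main fit. Calls over all genes were 1328 with no variance trend and 1144 to 1797 with each library left out. The cause of these moves was not tested. The 16 calls among KO cells and the 0 calls for the difference of KO effects stayed within 1.5 times under every alternative run. Over all genes, the share of calls for that difference that were larger in TH2 was 64.9%, and 51.9% with TMM scaling.

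Same-numbered libraries did not deviate together (correlations of −0.066 to 0.026), so numbers were not taken to pair them. With the replicate number as a block, the TH2 count was 7 and the TH1 count 0. Calls over all genes tested were then 284 in TH2 and 71 in TH1. The planned count tests on recovered reads were not run. With 3 libraries a group, differences of the size of the standard errors given cannot be told from 0.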
